A study of Mus musculus with 6 samples.

Results

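Small contact domains of the mouse embryonic stem cell genome were compared between cells with wild-type CTCF and cells whose CTCF lacks a zinc finger. A domain here is the stretch between 2 successive boundaries of the contact map, and a small domain is one whose boundaries lie 200 to 500 kb apart. Boundaries were local minima of the insulation score on the map summed over all 6 libraries, with a prominence of 0.2 or more. That map used the 45645 bins with 20 or more contacts in every library, a wider set than the bins tested below. The insulation score is log2 of the mean contact in a 500 kb square across a 50 kb bin, over the mean of the chromosome. Members were thus chosen by measured contact, summed over both genotypes. Of 2351 stretches between 2370 autosomal boundaries, 313 were small domains, and together they spanned 122.95 Mb. The other lengths used for comparison were 1058 domains of 550 to 950 kb and 900 domains of 1 to 2 Mb.

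The contact maps came from in-situ Hi-C of embryonic stem cells of strain 129, with 3 libraries labelled WT (genotype label wild type) and 3 labelled Del8 (genotype label GFP-CTCF-Del8). The design text names GFP-CTCF and a CTCF mutant without zinc finger 8 and speaks of biological replicates. The labels do not say if the WT cells have the tag as well, so the tag and the missing finger cannot be told apart where only 1 group has it. The labels name no clone, so a difference between clones cannot be told apart from the genotype either. Values of 3 libraries are given below in the order of their replicate numbers. Total contacts were 24038030, 24512722 and 36233407 across the WT libraries and 66266759, 46925260 and 38088173 across the Del8 libraries. Low coverage affected 37.6%, 38.0% and 0.0752% of autosomal bins across the WT libraries, and 0.0355%, 0.0648% and 9.31% across the Del8 libraries, so WT replicates 1 and 2 stood apart. Tests were therefore restricted to the 27827 bins of 47875 (58.1%) usable in every library.

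CTCF is a DNA-binding protein with a row of zinc fingers, of which a central group reads the core of its binding motif and others contact flanking bases or stabilise binding. Cohesin is thought to extrude loops of chromatin until it meets CTCF bound in the facing orientation, and such sites lie at many domain boundaries. Contacts are frequent inside a domain and rarer across its ends, and active promoters are also found at many boundaries.

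The promoters below lie in boundary bins of small domains named in the results, and they are shown because the score rose at the first of these bins and fell at the other 2. Of 10 promoters searched in the named boundary bins, 2 held the letters searched, and both are printed. Those without a match were at bins that rose (Gm41608, Apobec1, Lactb, Khdc3 and Rsl24d1) and at bins that fell (Fbxl22, Ahctf1 and Syt2). Gdf3 and Dppa3 start in the Apobec1 bin, but no promoter of theirs was among the 10. The promoters searched are RefSeq promoters of build GRCm38.p6, on the strand of the gene and 300 bases long, from 250 before to 50 after the start. Capitals mark a match to a core of the CTCF type, CC, any 3 bases, AG, any 2 bases and GGC, and an entry without capitals had no match on either strand.
Rab12, chr17:66519621-66519920, minus strand: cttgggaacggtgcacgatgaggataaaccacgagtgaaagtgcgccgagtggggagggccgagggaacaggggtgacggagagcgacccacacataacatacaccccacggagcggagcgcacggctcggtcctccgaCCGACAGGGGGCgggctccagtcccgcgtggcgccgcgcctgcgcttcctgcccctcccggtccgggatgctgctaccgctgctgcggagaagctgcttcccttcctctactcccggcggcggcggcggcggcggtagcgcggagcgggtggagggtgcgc
Snx6, chr12:54795613-54795912, minus strand: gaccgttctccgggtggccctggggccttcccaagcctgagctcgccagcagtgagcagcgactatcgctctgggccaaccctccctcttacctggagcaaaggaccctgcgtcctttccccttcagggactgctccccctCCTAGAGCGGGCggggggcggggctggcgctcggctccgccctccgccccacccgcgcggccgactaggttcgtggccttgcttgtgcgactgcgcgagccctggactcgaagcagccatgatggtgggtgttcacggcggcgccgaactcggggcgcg
Fbxl22, chr9:66514544-66514843, minus strand: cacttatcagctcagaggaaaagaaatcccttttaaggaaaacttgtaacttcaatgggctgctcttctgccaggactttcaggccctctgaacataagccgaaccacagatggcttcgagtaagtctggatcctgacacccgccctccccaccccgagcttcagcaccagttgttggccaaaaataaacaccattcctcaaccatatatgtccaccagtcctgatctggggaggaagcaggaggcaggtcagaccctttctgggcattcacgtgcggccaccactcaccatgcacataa

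These letters were found in 89 of 706 promoters in boundary bins of small domains (12.6%), against 2741 of 31396 autosomal promoters (8.73%). Inside small domains 222 of 2216 held them, and in other boundary bins 175 of 1859 (9.41%). Where the score of the boundary rose in Del8, 56 of 318 promoters held them (17.6%). Where it fell, 4 of 52 did (7.69%), and where it did not pass the test, 17 of 199 did (8.54%). Median GC content was 56.7%, 55.2% and 58.7% in those 3 sets. It was 56.2% in all boundary bins of small domains, against 53% over all promoters, and its part in the shares was not tested. A match is a description of the promoter and not of CTCF binding, and no test was made.

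Small domains lay in gene-rich chromatin. Inside them, boundary bins left out, 14.3 protein-coding genes started per Mb, against 9.39 in domains of 550 to 950 kb and 7.26 in domains of 1 to 2 Mb. A compartment eigenvector above 0, the sign of the gene-rich compartment, was found for 70.0% of small domains, 53.7% of the middle class and 40.4% of the longest class. The number of small domains rose with length from 14 at 200 kb to 79 at 450 kb, with 54 at 500 kb. Just outside the limits lay 4 stretches of 150 kb and 62 of 550 kb. In prominence, 51 minima lay just under the limit (0.19 to under 0.20) and 50 just above it (0.20 to under 0.21). Another small domain adjoined 92 of them, and 10 had a small domain on both sides. Chromosome 17 had the most per length, with 2.40 per 10 Mb, and chromosome 6 the fewest, with 0.683.

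Of the 313, 203 were well covered, with both boundary bins and at least 80% of all bins usable, and 110 were not tested. The tested ones are not a random draw. The eigenvector was above 0 in 88.7% of them and in 35.5% of the others, and 31 of the 32 small domains without a protein-coding gene start were among those not tested. For members not well covered, a looser screen without WT replicates 1 and 2 gave values with no test. Mean log2 contact within was 0.21 in WT replicate 3 and 0.074, 0.16 and 0.28 across the Del8 libraries (103 domains). With the flanks it was -0.36 in WT replicate 3 and -0.21, -0.30 and -0.57 across the Del8 libraries (104 domains), so WT replicate 3 lay among the Del8 libraries in both. By the same screen, well-covered domains had 0.28 in WT replicate 3 and 0.27, 0.26 and 0.32 across the Del8 libraries within, again among them. Their flanks had -0.49 in WT replicate 3 and -0.38, -0.38 and -0.35 across the Del8 libraries, all higher. A tested domain held on average 1217, 1274 and 1493 contacts across the WT libraries and 2726, 1891 and 1655 across the Del8 libraries, so Del8 values carry less counting error.

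On the usable bins and with all 6 libraries, contact within small domains was slightly lower in Del8 cells. Contact of the domain with its surroundings was higher. By the looser screen above, which left out WT replicates 1 and 2, the lower contact within was not seen in well-covered domains. Contact is given as observed over expected, the expected value being that of the same separation on the same chromosome, so that 1 is the chromosome's average. Pairs within a domain include those of its 2 boundary bins. Within small domains the geometric mean was 1.12, 1.11 and 1.10 across the WT libraries and 1.08 in each Del8 library. Every WT library lay above every Del8 library. The mean log2 value of 0.15 ± 0.014 for WT compared with 0.11 ± 0.0038 for Del8 (SD, n = 3 each), and the difference of -0.037 had the smallest p that 3 against 3 can give (two-sided exact permutation test, p = 0.10, 0.125 adjusted over 5 comparisons). That these levels exceed 1 follows from how domains were chosen, but the choice used no genotype labels.

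**Figure D1:**
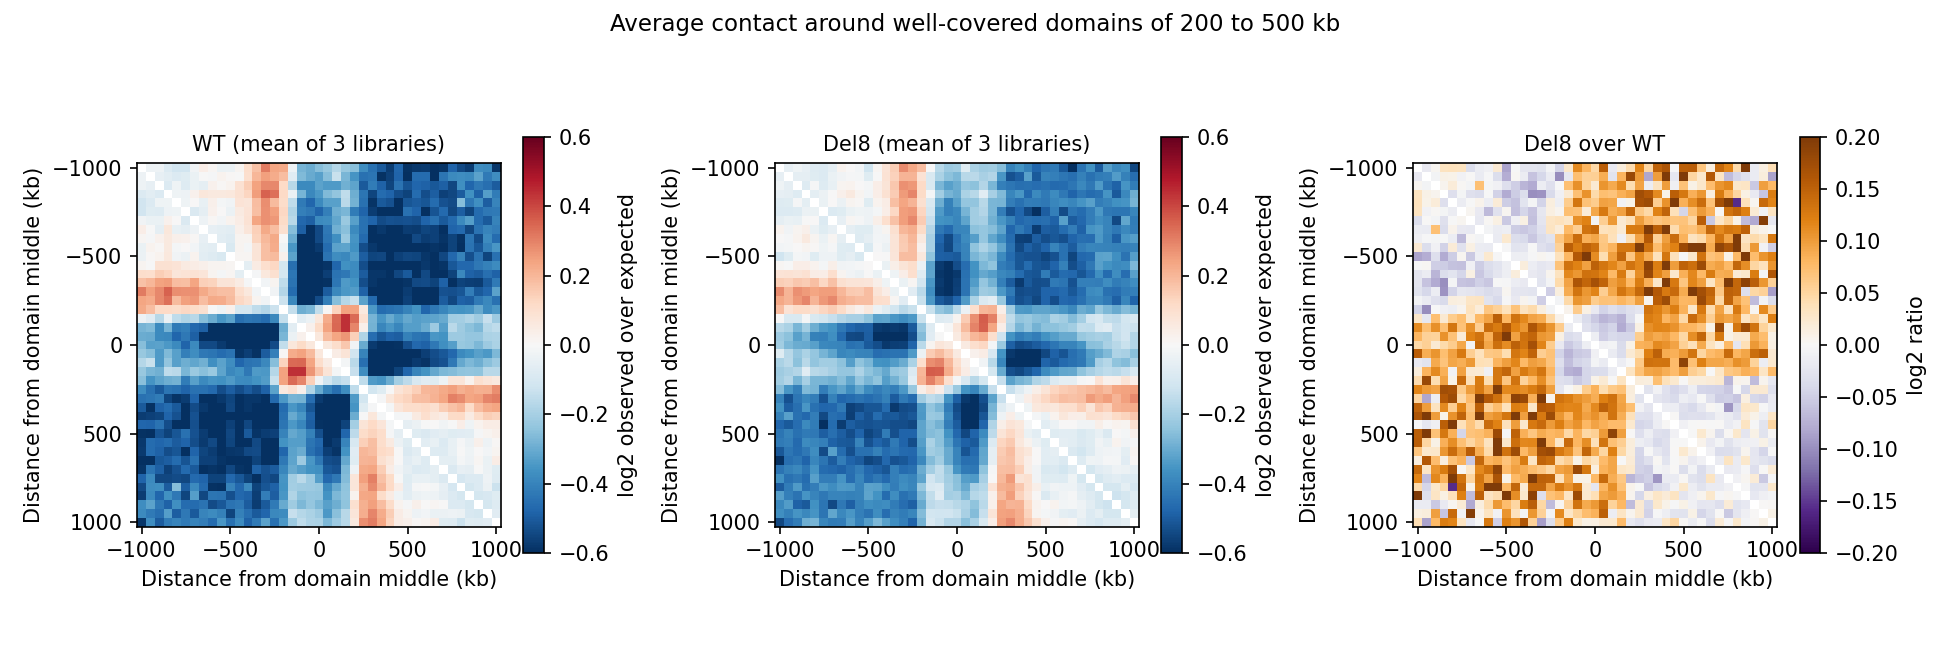
Average observed over expected contact (log2, colour) around the middles of the 203 well-covered small domains, by distance from the domain's middle in kb on both axes, for the mean of the 3 WT libraries, the mean of the 3 Del8 libraries and the log2 ratio of Del8 over WT. The central square, the domain itself, is above average in both groups and slightly lower in Del8, while the blocks joining the domain or its left side to what lies beyond a boundary are higher in Del8; colours saturate at the ends of each scale.

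The change was not shared by all small domains. By edgeR's quasi-likelihood test with Benjamini-Hochberg adjustment over 1097 domains of 200 kb to 2 Mb, contact within the domain fell in 76 of 203 small domains (37.4%) and rose in 27 (13.3%). Over all domains tested, 41.8% fell and 17.2% rose, shares near those of the small domains, which hold fewer contacts each. The median log2 change was -0.028, against -0.026 over all domains, and single domains ranged from -0.27 to 0.25. The Del8 libraries lay below all WT libraries in 72 small domains and above them in 27, where the shares over all domains tested were 44.3% and 18.5%. With TMM scaling factors in place of the expected counts, 44 fell and 25 rose. Without WT replicates 1 and 2, 43 fell and 24 rose, in a fit whose spread comes from Del8 alone.

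Contact between the inside of a small domain and the 250 kb beyond either boundary had a geometric mean of 0.642, 0.645 and 0.667 across the WT libraries. It was 0.705, 0.708 and 0.706 across the Del8 libraries, again without overlap, and WT replicate 3 was the WT library nearest to Del8. The mean log2 difference was 0.12, a 1.09-fold contact (two-sided exact permutation test, p = 0.10, 0.125 adjusted over 5 comparisons). By edgeR, flank contact rose in 116 of 195 small domains (59.5%) and fell in 5 (2.56%), against 60.9% and 7.24% of the 1063 domains of all lengths. The median log2 change was 0.11, and it was 0.10 over all domains tested. The Del8 libraries lay above all WT libraries in 115 and below them in 8, against 60.5% and 7.9% over all domains. TMM factors, used in place of the expected counts, left 32 that rose and 53 that fell. That fit drops the correction for bin coverage, separation and chromosome together with the shared shift, so it cannot tell these apart. The direction of single flanks above is relative to the chromosome's average.

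**Figure D2:**
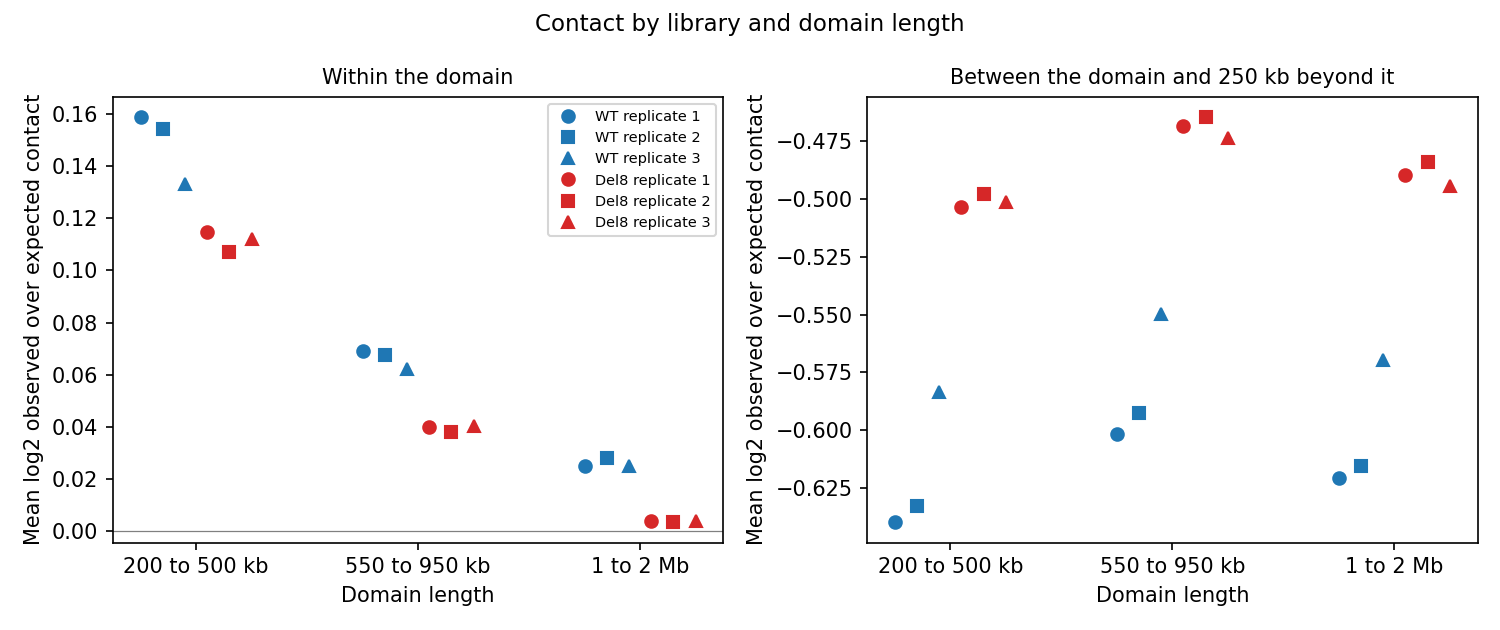
Mean log2 observed over expected contact (vertical axis) in each library, by domain length (horizontal axis), within domains (left) and between a domain and the 250 kb beyond it (right); each symbol is 1 library, blue for WT and red for Del8. For small domains the WT libraries lie at 0.13 to 0.16 within and the Del8 libraries at 0.11, while with the flanks WT lies at -0.64 to -0.58 and Del8 at -0.50.

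Both measures were available for 195 small domains. In 46 of them contact within fell and contact with the flanks rose. In 54 only the flanks rose, in 28 only the inside fell, and in 16 both rose. In no domain did both fall, and 36 passed neither test. These pairs of calls were not counted in longer domains. Taken singly, contact within fell in 41.8% of all domains tested and flank contact rose in 60.9%, near the shares of small domains. Contact at the corner of the domain, where its 2 ends meet, was 0.28, 0.26 and 0.22 (log2, relative to the mean within) across the WT libraries. It was 0.24, 0.25 and 0.26 across the Del8 libraries. The groups overlapped, and the difference was -0.00045 (two-sided exact permutation test, p = 1).

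**Figure D3:**
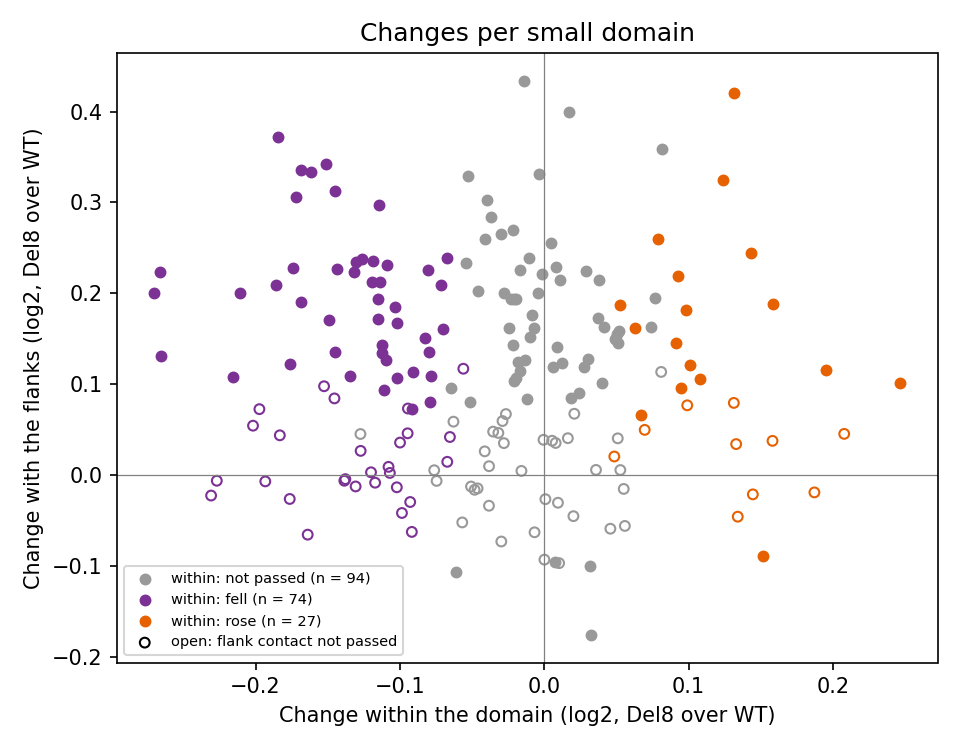
Change of contact within the domain (horizontal axis) against change with its flanks (vertical axis), both as log2 of Del8 over WT, for the 195 small domains with both values; each point is 1 domain, coloured by its call within and open where the flank change did not pass. Most points lie above the horizontal line at 0, and those that fell within span flanks that rose (46 domains) and flanks that did not pass (28 domains).

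At the same separations of 100 to 200 kb, the fall within small domains was slightly larger than that within longer ones, in a design that cannot bring p under 0.10. Boundary bins count as part of each domain and make up more of a short one. The contrasts match separation but not that share, whose part in them was not tested. The excess over domains of 550 to 950 kb was 0.13, 0.13 and 0.12 on the log2 scale across the WT libraries and 0.12, 0.11 and 0.11 across the Del8 libraries. The excess over domains of 1 to 2 Mb was 0.19, 0.18 and 0.17 in WT and 0.16 in each Del8 library. The differences between genotypes were -0.012 and -0.022, and in neither did the groups overlap (exact permutation test, two-sided, p = 0.10 and adjusted p = 0.125 for each). For flank contact the same contrasts overlapped between groups, with differences of 0.0054 and 0.0053 (two-sided exact permutation test, p = 0.20 for each). With boundaries of prominence 0.3 or more the 2 contrasts within domains overlapped as well, at -0.0086 and -0.012.

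Small domains with many genes differed from those with few. Among the 65 with 10 or more protein-coding gene starts, contact within rose in 16 (24.6%) and fell in 14 (21.5%). Among the 138 with fewer, it rose in 11 and fell in 62. Over all domains tested, 17.2% rose and 41.8% fell. The mean log2 contact of gene-rich minus gene-poor small domains was 0.035, 0.042 and 0.046 across the WT libraries and 0.10, 0.10 and 0.094 across the Del8 libraries. The change of 0.059 left no overlap (two-sided exact permutation test, p = 0.10), and the split at 10 was chosen after values had been seen. The same contrast changed by 0.046 in domains of 550 to 950 kb and by 0.051 in domains of 1 to 2 Mb, so it is not particular to small ones. Flanks rose in 36 of 62 gene-rich small domains (58.1%) and in 80 of 133 with 1 to 9 gene starts (60.2%). Both shares were near the 60.9% of all domains tested.

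The largest rise was on chromosome 4, at chr4:122850001-123300000, around Mycl, a transcription factor of the MYC family, Cap1, an actin-binding protein, Mfsd2a, a lipid transporter, and Trit1, a tRNA-modifying enzyme. Its contact within was 1.06, 1.01 and 1.05 across the WT libraries and 1.22, 1.28 and 1.20 across the Del8 libraries. All Del8 libraries were above all WT libraries, and the log2 change was 0.25 (edgeR, SE 0.028, adjusted p = 1.48e-15). The domain at chr17:23500001-24050000 holds 30 protein-coding gene starts, among them Zscan10, a zinc finger factor of stem cells, with Zfp213, Zfp13 and Bicdl2. It rose from 1.08 ± 0.011 to 1.24 ± 0.017 (SD, n = 3 each), with no called change of its flanks.

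Utf1, a chromatin factor of undifferentiated cells, starts in the domain at chr7:139600001-140050000 with Cfap46, Adgra1 and Kndc1. Contact there was 0.967, 0.986 and 0.957 across the WT libraries and 1.10, 1.12 and 1.09 across the Del8 libraries, so a domain below its chromosome's average in WT was above it in Del8. The other large rises were at chr1:85650001-86050000 with Cab39 and Itm2c (0.20), chr8:27000001-27350000 with Erlin2 and Brf2 (0.16), chr18:82550001-83050000 with Zfp236 and Zfp516 (0.16) and chr8:71250001-71800000 with Haus8 and Myo9b (0.14). At chr19:41800001-42200000, with Frat1 and Frat2, inhibitors of GSK3, contact within rose by 0.15 while that with the flanks fell by 0.089 (edgeR, adjusted p = 0.0301). It was the 1 small domain in which the inside rose and the flanks fell.

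The largest fall was at chr17:66150001-66550000, with Mtcl1, which crosslinks microtubules, and Rab12, a small GTPase. Contact within was 0.994, 0.981 and 1.01 across the WT libraries and 0.825, 0.834 and 0.819 across the Del8 libraries. The log2 change was -0.27 (edgeR, SE 0.034, adjusted p = 5.01e-13), and contact with the flanks rose by 0.20. At chr10:40200001-40550000, with Cdk19, a kinase of the Mediator complex, and Amd1, an enzyme of polyamine synthesis, contact of 1.14, 1.10 and 1.10 among WT libraries became 0.923, 0.938 and 0.916 among Del8 libraries. At chr8:33700001-34150000, with Gtf2e2, a subunit of the general transcription factor TFIIE, WT libraries had 1.27, 1.29 and 1.26 and Del8 libraries 1.04, 1.08 and 1.07. Flank contact rose at both, by 0.22 and 0.13.

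In other large falls, at Cntn2 and at Klf9, the flanks did not pass. The domain at chr1:132500001-133050000 holds Cntn2 and Nfasc, adhesion proteins of neurons, with Tmem81 and Lrrn2. It fell from 1.16 ± 0.029 to 0.992 ± 0.014 (SD, n = 3 each), and its flanks were 0.692 in both groups. The domain at chr19:22850001-23300000, with Klf9, a transcription factor, and Smc5, a subunit of the SMC5/6 complex, fell by 0.23. The remaining named falls were chr18:6000001-6550000 with Kif5b, a kinesin, and Epc1 (-0.22, flanks not measured), chr2:10050001-10350000 with Itih2 and Kin (-0.22) and chr3:157850001-158100000 with Srsf11, a splicing factor, and Cth (-0.21). Flanks rose at the last 2, by 0.11 and 0.20. At Srsf11 and Cth the fall within did not pass without WT replicate 2, Del8 replicate 1 or Del8 replicate 3 (-0.20, -0.18 and -0.19).

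The mean score in Del8 was higher by 0.117 at boundaries of small domains and by 0.118 at boundaries of no small domain. The shift was thus not particular to small domains. Of 364 boundaries of small domains with a score in every library, the score rose in 201 (55.2%) and fell in 41 (11.3%). The test was limma with Benjamini-Hochberg adjustment over 1269 boundaries, of which 51.5% rose and 12.7% fell. The score goes up as contact over the boundary increases. For small domains, the flank pairs counted above lie inside the 500 kb square of the boundary they cross. Flank contact and score thus share contacts and are not separate results. The mean score was -0.53, -0.52 and -0.47 across the WT libraries and -0.39, -0.38 and -0.39 across the Del8 libraries. The median change was 0.12, and it was 0.11 over all boundaries. After the median over boundaries was subtracted per library, 110 rose and 105 fell. The Del8 libraries lay above all WT libraries at 56.3% of boundaries and below them at 14.6%, where the shares over all boundaries were 53.3% and 15.3%. Without WT replicates 1 and 2, 146 rose and 45 fell. Among the 36 boundaries between 2 small domains, 16 rose and 7 fell.

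**Figure D4:**
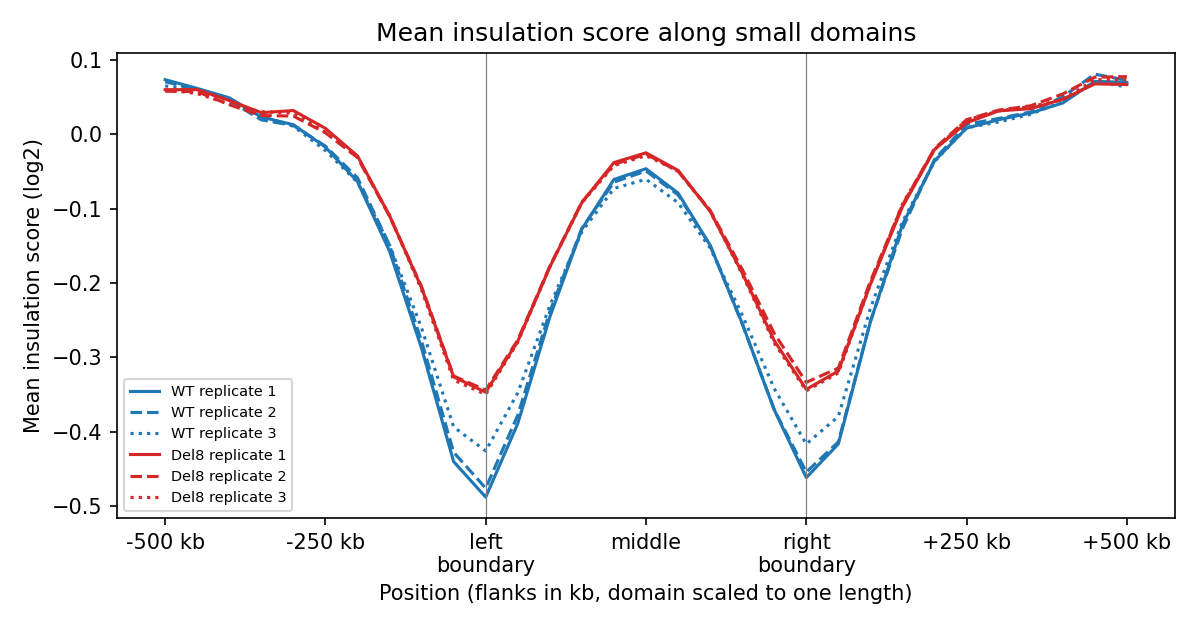
Mean insulation score (log2, vertical axis) of each library along small domains and 500 kb to either side (horizontal axis, with the domain scaled to one length); each line is 1 library, blue for WT and red for Del8. The lines dip at both boundaries, and the WT lines dip lower than the Del8 lines.

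The largest rise was at chr17:66500001-66550000, the bin with the start of Rab12, whose promoter is printed above. Its score was -1.20, -1.17 and -1.12 across the WT libraries and -0.43, -0.41 and -0.38 across the Del8 libraries, a change of 0.75 (limma, SE 0.035, adjusted p = 5e-07). At chr9:73100001-73150000, with Khdc3, a protein of the oocyte and early embryo, and Rsl24d1, of ribosome assembly, the score rose by 0.72 from -1.04 ± 0.022 (SD, n = 3). The bin at chr8:60450001-60500000 rose by 0.64 and the bin of Lactb, at chr9:66950001-67000000, by 0.58. The bin with Apobec1, a cytidine deaminase, Gdf3 and Dppa3 rose by 0.60.

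The largest fall was at chr9:66500001-66550000, the bin with the start of Fbxl22, an F-box protein. The score was 0.20, 0.16 and 0.14 across the WT libraries and -0.45, -0.36 and -0.46 across the Del8 libraries, a change of -0.59 (limma, SE 0.038, adjusted p = 2.18e-06). In every WT library the score was lower in the bin 50 kb to the left and higher in the bin 50 kb to the right, whereas in every Del8 library both neighbours were higher. At chr16:34600001-34650000 the change was -0.37, where WT libraries lay at 0.12 to 0.13 and Del8 libraries at -0.27 to -0.19. The bins of Ahctf1, a nuclear pore protein (chr1:179800001-179850000, -0.45), Syt2, a calcium sensor of vesicle release (chr1:134600001-134650000, -0.37), and Snx6, a sorting nexin (chr12:54750001-54800000, -0.37), had scores below 0 in both groups and lower in Del8. At Snx6 the score fell from -2.07 ± 0.037 to -2.44 ± 0.017 (SD, n = 3 each).

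The 2 ends of a small domain could change in opposite directions. Of 180 small domains with a score at both ends, both rose in 48 (26.7%), 1 rose in 72, and 1 rose while the other fell in 30 (16.7%). That last share was 15.6% in domains of 550 to 950 kb and 9.70% in domains of 1 to 2 Mb. Both ends rose in 20.7% and 29.4% of those longer classes, so the share of small domains lay between the shares of longer ones. In the same longer classes 1 end rose in 38.8% and 39.7%, close to the 72 of 180 small domains. The square reaches past the far boundary of a short domain, so the scores of the 2 ends share bin pairs. Within the 30 domains, contact fell in 14 and rose in 2, where 41.8% of all domains fell and 17.2% rose.

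The widest contrast was at chr9:66500001-67000000, between the Fbxl22 bin, which fell by 0.59, and the Lactb bin, which rose by 0.58. Usp3, a deubiquitinase, Car12, a carbonic anhydrase, and Rps27l lie between them. Contact within was 1.08, 1.12 and 1.09 across the WT libraries and 1.02, 1.01 and 0.988 across the Del8 libraries (edgeR, log2 change -0.12, SE 0.031, adjusted p = 0.000358). The small domain to its left, chr9:66100001-66550000 with Dapk2, ends at the same Fbxl22 bin, and its left boundary rose by 0.33. Contact of that domain with its flanks fell by 0.18. At the Lactb bin the WT scores were -0.51, -0.47 and -0.52 and the Del8 scores 0.077, 0.086 and 0.084. The stretch between both bins is a domain of the summed map.

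**Figure D5:**
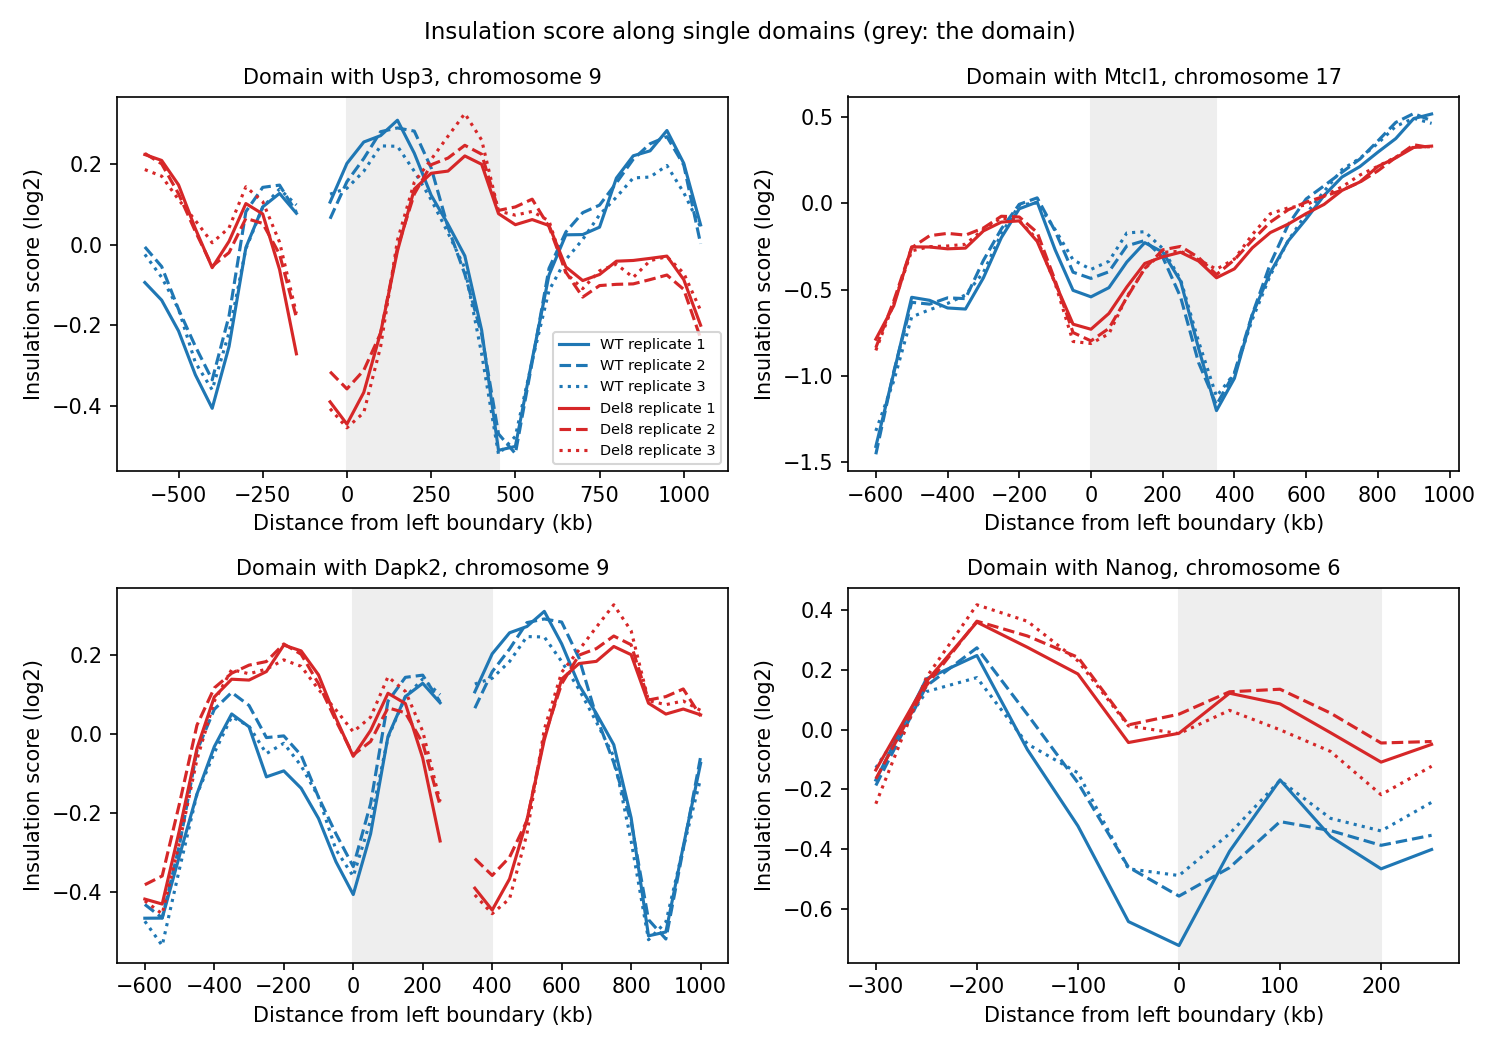
Insulation score (log2, vertical axis) by distance from the left boundary in kb (horizontal axis) at 4 small domains, shaded grey, in each library (blue WT, red Del8); gaps are bins without a score. At the domain with Usp3 the WT libraries dip near the right boundary and the Del8 libraries near the left one, and at the domain with Nanog the Del8 lines lie above the WT lines across the whole domain.

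Of 24 located genes of the pluripotency list, 5 lay in 5 small domains, all well covered. Dppa3 starts in a boundary bin shared by 2 small domains and counts in both, and Nanog lies in 1 of these. Contact within rose in 3 and fell in none, where 17.2% and 41.8% of all domains did, with a median of 0.093 on the log2 scale. Flanks rose in 3, close to the 60.9% of all domains, with a median of 0.22. Besides that of Utf1, the domain of Tfcp2l1, a factor of the naive state (chr1:118250001-118800000), rose by 0.13 and that of Tdgf1, a co-receptor of Nodal (chr9:110900001-111350000), by 0.093. Without WT replicate 1 the value at Tdgf1 was 0.053 and did not pass (edgeR, adjusted p = 0.215). Nanog, a core pluripotency factor, and Dppa3, a maternal factor, start in chr6:122600001-122850000, the shortest kind of small domain at 200 kb. Contact within it was 1.38, 1.19 and 1.25 across the WT libraries and 1.39, 1.34 and 1.26 across the Del8 libraries, which overlapped (edgeR, log2 change 0.081, adjusted p = 0.247). Its flank contact was 0.599, 0.702 and 0.699 across the WT libraries and 0.836, 0.887 and 0.857 across the Del8 libraries, a rise of 0.36 (edgeR, SE 0.054, adjusted p = 1.25e-09).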

How the data were processed

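The authors deposited raw contact counts between 50 kb bins, 1 file per library, on build mm10 according to the submitters' processing notes. Aligner and filters: not given in the sources used here. Deposited pairs lie on the same chromosome. Maps were balanced per chromosome and library by iterative correction without the diagonal. Coverage was scaled to the 75th percentile of each library, and usable bins kept 0.5 or more of the third-highest value, and over 0.1, in all libraries. Counts were summed per domain over usable pairs 100 kb or more apart and tested with edgeR 4.0.16 (quasi-likelihood, offsets from expected counts); scores were tested with limma 3.58.1, both on all domains of 200 kb to 2 Mb or all boundaries, at an adjusted p under 0.05. Single values per library were compared by exact permutation, where 3 against 3 cannot go below 0.10. The tests were checked on simulated data.

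Members, gene lists and the coverage screen were chosen with earlier results of these data known. Named domains are the 8 largest rises and 8 largest falls within, and the 5 largest rises and 5 largest falls of boundary score, among called changes whose groups did not overlap, plus up to 4 domains per gene list. Any 2 libraries differed by more than counting noise in bin coverage (lowest chi-square per degree of freedom 1.69). If replicates were not separate cultures, p-values measure only the spread between these libraries. Same-numbered libraries did not deviate together (correlations 0.029, -0.070 and -0.065), so replicate numbers were not treated as pairs. Gene starts and promoters came from RefSeq. Alternatives were other tests, scaling, screens, separations, prominences and libraries left out.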

Additional observations from a re-analysis of the deposited data

How the results depend on the processing

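Of the 110 small domains not well covered, and so not tested, 35.5% had a positive eigenvector, and the counts describe the tested domains only. By the looser screen, Del8 minus WT replicate 3 in them was -0.0442 within and 0.000336 with the flanks, against 0.000806 and 0.116 in well-covered domains. Depth limits single domains: the least covered held 233 contacts in 1 library. Leaving out 1 replicate gave 18 to 26 rises and 58 to 74 falls within, 102 to 127 and 4 to 6 with the flanks, and 172 to 212 and 33 to 43 for scores. The mean differences then ranged from -0.0453 to -0.0324 within, 0.107 to 0.136 with the flanks, -0.0166 to 0.0136 at the corner, -0.0143 to -0.0099 against domains of 550 to 950 kb and -0.0258 to -0.0178 against 1 to 2 Mb. The replicate block gave 27 rises and 76 falls within, 115 and 6 with the flanks, and 196 and 38 for scores, and changed no call counted here by over 1.5 times; not every library correlated best with its own number. DESeq2 gave 17 rises within. TMM factors gave 44 falls within and 32 rises and 53 falls with the flanks, and centring gave 110 rises and 105 falls of score. Without WT replicates 1 and 2 there were 43 falls within and 9 with the flanks, and the corner difference was 0.0318; with every bin usable there were 2 flank falls and a corner difference of 0.00473. Prominence 0.3 left 83 domains and 159 boundaries, with 11 rises and 27 falls within, 51 and 1 with the flanks, 93 and 18 for scores, and contrasts of -0.0086 and -0.0119 with longer domains.

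The looser screen, with only 20 contacts asked per library, gave 0 calls by edgeR or limma (at an unadjusted p under 0.05, 1 rises and 13 falls within, 3 and 1 with the flanks, and 61 and 15 for scores), a mean difference within of 5.19 and contrasts of -3.39 and -2.46, with overlapping groups; the cause was not tested. Chosen after seeing the data, that screen without WT replicates 1 and 2 gave 0 rises and 0 falls within by edgeR (8 and 9 at an unadjusted p under 0.05), 13 rises and 0 falls with the flanks, and a mean difference of -0.0108.

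Named domains (by 1 gene) and boundaries whose log2 change turned its sign, including changes past no threshold, were these; the cause was not tested. TMM factors: Ctcfl 0.00795, Mcts2 0.0163, Rps2 0.0548 and Olfr221 -0.0543. Boundary bins left out: Nnat 0.0612, Larp1 -0.0108, Olfr70 -0.00785, Zfp26 -0.00541, Hoxb13 0.113, Slc16a4 0.00193 and Slc44a4 -0.0656. Neighbouring bins included: Ctcfl 0.0404, Nes -0.00551, Olfr70 -0.0104 and H1f10 0.00182. Without WT replicates 1 and 2: Ctcfl 0.0114, Mcts2 0.0109, Pdgfrb 0.0114 and Slc25a20 -0.0152. Leaving out each replicate in turn: Ctcfl -0.0179 to 0.00235, Mcts2 -0.0253 to 0.00356, Rps2 -0.0668 to 0.0143, Slc36a2 -0.014 to 0.0446. Looser screen: Mycl -0.376, Utf1 -0.346, Zfp516 -0.183, Frat1 -0.177, Cdk19 1.36, Epc1 1.33, Itih2 1.35, Tdgf1 -0.138, Nanog -0.199, Larp1 -0.313, Nes -0.33, Trim15 1.25, Slc2a5 -0.417, Slc25a20 -0.168, Slc16a4 0.796, Slc36a2 -0.316, Slc44a4 -0.0209, the Snx6 boundary 0.172 and the boundary chr16:34600001-34650000 22.7. Looser screen without WT replicates 1 and 2: Ctcfl 0.0637, Mcts2 0.0405, Mfap3 0.0137, Pdgfrb 0.0267, Olfr221 -0.047, Slc25a20 -0.0281 and Slc16a4 0.00213.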

Other observations

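Other gene lists were read from the small domains that hold a gene start of the list, by edgeR's calls; over all domains tested 17.2% rose and 41.8% fell within, and 60.9% rose and 7.24% fell with the flanks. Genes named Zfp, most of which code for zinc finger proteins, had 37 of 365 located members in 24 small domains. Of the 19 well covered, contact within rose in 7 and fell in 3, and flanks rose in 9 and fell in none. One of the 3 falls was chr8:71750001-72200000, with Zfp709, Zfp882, Zfp617 and Zfp961, where WT libraries had 1.19, 1.19 and 1.21 and Del8 libraries 1.08, 1.04 and 1.07. Ribosomal protein genes had 12 of 84 in 11 small domains; of the 8 well covered, contact within rose in none and fell in 2, and flanks rose in 6 and fell in 1. Of 26 domains with solute carrier genes, 3 rose and 8 fell within, and of 56 with microRNA genes, 15 rose and 13 fell. Of 7 with small nucleolar RNA genes, 1 rose, at Ncl (chr1:86000001-86400000, 0.14), and 1 fell, at Pde8b (chr13:94950001-95400000, -0.11).

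Olfactory receptor genes had 57 of 1111 in 10 small domains. Of the 5 well covered, 2 fell within, and no flank passed. The 4 small domains with vomeronasal receptor genes were not well covered and gave no test. Single genes of other lists lay in Ctcfl (-0.0071, not passed), Nes (0.063, rose), Pdgfrb (-0.030, not passed) and Hoxb13 (-0.052, not passed) domains. The imprinted list had 2 genes in small domains, Nnat (-0.10, fell) and Mcts2 (-0.012, not passed). Canonical histones had 11 of 68 located genes in 2 small domains. Only 1 of these domains was well covered, that of H1f10 (-0.046, not passed). Hand1 starts in a bin shared by 2 small domains, of which the left fell (-0.078) and the right did not pass (0.021). Left-out libraries ended some calls by edgeR: Nnat without WT replicate 2 (-0.0548) and Pde8b without WT replicate 1 (-0.0799). The call at Nes was lost without WT replicate 3 (0.0479). The left Hand1 domain ranged from -0.12 to -0.0444 and passed only without WT replicate 3 or Del8 replicate 3. No located gene of the DNA methylation, primitive endoderm, protocadherin or keratin lists started in a small domain. Out of 19 autosomes, chromosomes 10, 15 and 5 are named after their values had been seen. Over all domains tested, contact within fell in 41.8% and rose in 17.2%. Contact within fell in 6 of 8 well-covered small domains of chromosome 10 and rose in none. On chromosome 15 it rose in 2 of 12 and fell in none, and on chromosome 5 it rose in 4 and fell in 4 of 15.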
